A study of Mus musculus with 10 samples.

Results

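The eIF4E proteins, which bind the cap at the 5′ end of messenger RNA, and the repressors that bind eIF4E were followed here as transcripts in mouse oocytes and in parts of them. The 8 genes were Eif4e, Eif4e2, Eif4e3 and Eif4e1b for the cap-binding proteins and Eif4ebp1, Eif4ebp2, Eif4ebp3 and Eif4enif1 for the repressors. A probe set, the group of array probes that reports 1 transcript, was used only where the platform annotation listed it with exactly 1 gene. By this rule 6 of the 8 genes had 20 probe sets, of 18193 genes with 34945 such probe sets on the array. Eif4e1b had none. Eif4ebp3 was listed only on a probe set shared with Ankhd1, which was not used.

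All RNA came from female B6D2F1 mice, which received eCG and, 48 h later, 5 IU of hCG, so every group was matured in vivo and collected 16 h after hCG, with cumulus cells taken off by hyaluronidase. The labels give no age and no number of oocytes in a sample. The spindle-chromosome complex (SCC, 3 arrays) is the spindle of metaphase II (MII) with its chromosomes, removed by microsurgery with whatever cytoplasm came along. The cytoplast (4 arrays) is the oocyte left without it, and the intact MII oocyte (3 arrays) holds both. The study asks whether maternal transcripts are concentrated at the spindle. Each array received the same mass of amplified RNA, so a value is a share of the sample's RNA, and a lower share cannot be told apart from a larger amount of other RNA.

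eIF4E binds the mRNA cap and, through the scaffold eIF4G, brings in the helicase eIF4A, which lets the small ribosomal subunit load. The 4E-BP proteins, products of the Eif4ebp genes, occupy the eIF4G site on eIF4E until the kinase mTOR phosphorylates them. The 4E-T protein, product of Eif4enif1, also binds eIF4E and keeps mRNAs silent in ribonucleoprotein particles. A fully grown oocyte does not transcribe, so its maturation depends on stored mRNA whose translation is switched on and off, in large part at the cap.

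Array medians were 15.6 to 16.6 in intensity units, while the 95th percentile of an array was 618 to 788 on SCC arrays, 521 to 626 on cytoplast arrays and 563 to 705 on MII oocyte arrays. With 2 other scalings, the share of all tested called between SCC and cytoplast was 2.41% (quantile normalization) and 2.64% (cyclic loess), against 7.01%. What lay behind the difference in the 95th percentile was not tested. The precision is limited by having 10 arrays. Background was set per array at the 95th percentile of 58 probe sets for genes of other tissues, which came to 106 to 176. Of 14 oocyte markers, 12 had a probe set, and 11 of these were above background on every SCC array, 10 on every cytoplast array and 10 on every MII oocyte array. Of 24 markers of cumulus and granulosa cells, 21 had a probe set, and in each group 19 of them were above background on no array. Summed, they read 694 to 839 on SCC arrays, 646 to 762 on cytoplast arrays and 655 to 768 on MII oocyte arrays, and their part in the results was not tested. The controls spiked in at hybridisation were brighter on 4 arrays (SCC 3, cytoplast 4, MII oocyte 2 and 4; mean log2 10.87 to 11.08) than on the other 6 (9.62 to 10.42). Beta-actin control probe sets, which gauge RNA integrity and amplification length, differed (3′ minus 5′, log2) by 3.27 to 3.65 on SCC arrays, 3.66 to 5.29 on cytoplast arrays and 3.33 to 4.42 on MII oocyte arrays, and the part of this in the results was not tested.

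Transcripts of 4 of the 6 measured genes were above background: Eif4e (2 of its 4 probe sets), Eif4e3 (both), Eif4ebp1 (1 of 3) and Eif4enif1 (its single one). These 6 probe sets exceeded background on every array of at least 1 group. The other 14 probe sets were above it on no array, with intensities from 6.19 to 94.9. All 5 probe sets each of Eif4e2 and Eif4ebp2 were among them, so for these genes, and for the dim probe sets of the others, the arrays give no measured level, and neither a fold nor a log2 difference is given.

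**Figure D1:**
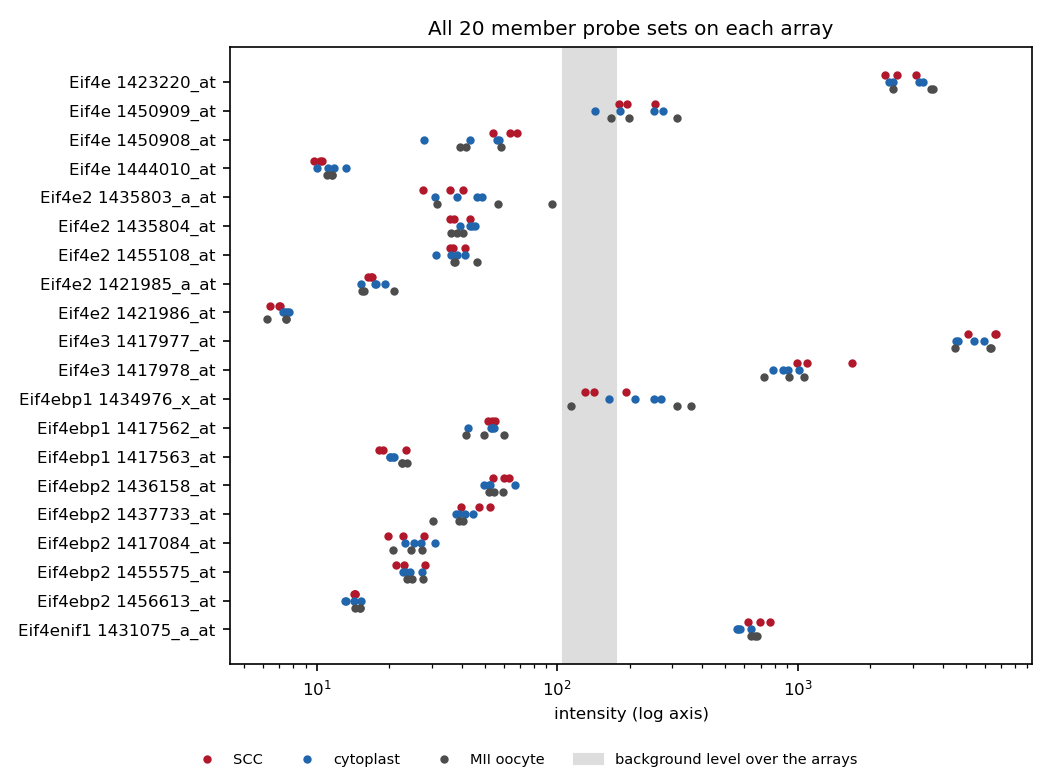
Intensity (log axis) of each of the 20 member probe sets on every array, 1 point per array, coloured by group; the grey band spans the background level of the 10 arrays, 106 to 176. The probe sets of Eif4e2 and Eif4ebp2 lie to the left of the band on every array, and both of Eif4e3 lie to its right.

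Eif4e encodes the general cap-binding protein of translation initiation. Probe set 1423220_at read 2293, 2576 and 3095 on the SCC arrays, 3191, 2401, 2486 and 3329 on the cytoplast arrays and 3663, 2486 and 3594 on the MII oocyte arrays. The 3 groups overlapped, and the highest values of each group came from arrays with brighter hybridisation controls. On the log2 scale of the test, whose folds are ratios of geometric means, the SCC mean was 0.934 times the cytoplast mean (95% interval 0.711 to 1.23; log2 difference -0.10, SE 0.18, limma adjusted p = 0.827) and 0.824 times the MII oocyte mean (0.616 to 1.10; limma adjusted p = 0.637). For 1423220_at the log2 difference between SCC and cytoplast grew to -0.405 after cyclic loess (limma adjusted p = 0.0717). After quantile normalization it was -0.390 (limma adjusted p = 0.0822), so its size depended on the scaling. Probe set 1450909_at read 181, 195 and 255 on SCC arrays, 183, 275, 253 and 144 on cytoplast arrays and 199, 313 and 167 on MII oocyte arrays. The groups overlapped again, with a log2 difference between SCC and cytoplast of 0.008 (SE 0.26, limma adjusted p = 0.993) whose sign turned after cyclic loess (-0.19) and quantile normalization (-0.24). Both probe sets are annotated with the same source sequence, as is 1450908_at, which was above background on no array. Their arrays did not follow each other: over the 4 arrays with brighter controls 1423220_at had a median of 3461 and over the other 6 one of 2486, whereas 1450909_at had 183 and 224.

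Eif4e3 encodes a cap-binding relative of eIF4E with a different contact to the cap and without 4E-BP binding. Probe set 1417977_at read 5116, 6594 and 6637 on SCC arrays, 5415, 4645, 4564 and 5925 on cytoplast arrays and 6313, 4491 and 6343 on MII oocyte arrays. The lowest SCC array lay below 2 of the cytoplast arrays, and the SCC mean was 1.19 times that of the cytoplast (95% interval 0.930 to 1.52; log2 difference 0.25, SE 0.16, limma adjusted p = 0.445; log2 -0.08 after cyclic loess). Probe set 1417978_at read 989, 1095 and 1685 on SCC arrays, 868, 909, 787 and 1011 on cytoplast arrays and 919, 726 and 1059 on MII oocyte arrays. SCC replicate 3 stood above every other array, SCC replicate 2 above all arrays of both other groups, and SCC replicate 1 below 1 array of each. The SCC mean was 1.37 times the cytoplast mean (1.03 to 1.83; log2 difference 0.46, SE 0.19, unadjusted p = 0.0345, limma adjusted p = 0.199) and 1.37 times the MII oocyte mean (1.01 to 1.87; limma adjusted p = 0.402). This was the member with the smallest p against the cytoplast.

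Eif4e3 probe set 1417978_at was called only in fits that took in the level of the spiked controls. In these fits more of all tested probe sets were called too: 12.7% with the covariate and 11.7% with the block, against 7.01% in the main fit (SCC against cytoplast). The share called against the MII oocyte was not counted in them. With their level as a covariate, a choice made after the values were seen, the log2 difference from the cytoplast was 0.48 (limma adjusted p = 0.0156) and that from the MII oocyte 0.59 (limma adjusted p = 0.0442). With the brighter and dimmer arrays as a block it was 0.42 against the cytoplast (limma adjusted p = 0.0468) and 0.61 against the MII oocyte (limma adjusted p = 0.0537). Within the dimmer arrays (2 of SCC, 3 of cytoplast) the difference was 0.29, and within the brighter ones (1 of each) 0.74. After cyclic loess the difference from the cytoplast was 0.19 (limma adjusted p = 0.524) and after quantile normalization 0.16 (limma adjusted p = 0.591). Without SCC replicate 3 it was 0.23 (limma adjusted p = 0.633).

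Eif4e2 encodes 4EHP, which binds the cap but not eIF4G and serves repression. Its 5 probe sets read 6.19 to 94.9 over all arrays, and 4 passed the filter on low values. None of the 4 passed between SCC and cytoplast (lowest limma adjusted p = 0.496). The brightest reading was that of 1435803_a_at on MII oocyte replicate 2, below that array's background of 142.

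**Figure D2:**
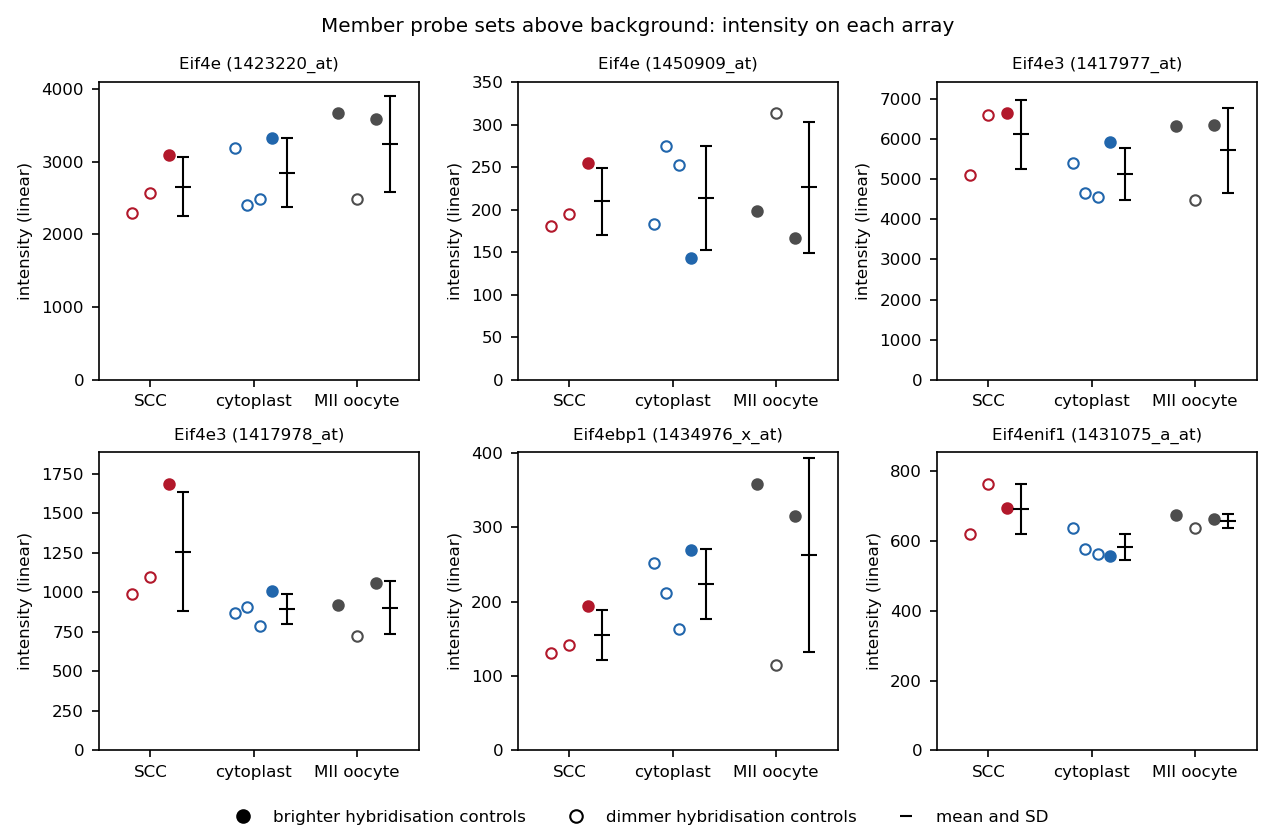
Intensity (linear axis from 0) of the 6 member probe sets above background in at least 1 group, on each SCC, cytoplast and MII oocyte array; bars give the mean and SD, and filled points mark the 4 arrays with brighter hybridisation controls. Eif4e3 1417978_at has its highest value, 1685, on SCC replicate 3, and Eif4ebp1 has its lowest, 114, on MII oocyte replicate 3.

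Eif4ebp1 encodes 4E-BP1, the mTOR-controlled competitor of eIF4G. Probe set 1434976_x_at read 130, 142 and 194 on SCC arrays, 251, 211, 164 and 269 on cytoplast arrays and 358, 114 and 315 on MII oocyte arrays. It was above background on 2 of 3 SCC arrays, 4 of 4 cytoplast arrays and 2 of 3 MII oocyte arrays, being below it on SCC replicate 2 and MII oocyte replicate 3, so it counts among the measured probe sets through the cytoplast alone. SCC replicates 1 and 2 lay below every cytoplast array, and replicate 3 lay between them. The log2 difference between SCC and cytoplast was -0.52 (SE 0.34; fold 0.696, 95% interval 0.415 to 1.17; limma adjusted p = 0.446), with -0.60 within the dimmer and -0.47 within the brighter arrays. The difference from the cytoplast was -0.72 after cyclic loess (limma adjusted p = 0.224) and -0.75 after quantile normalization (limma adjusted p = 0.210). Against the MII oocyte the log2 difference was -0.62 (SE 0.36, limma adjusted p = 0.559). Without MII oocyte replicate 3, where the probe set was below background, it was -1.13 (limma adjusted p = 0.0294). The share of all tested called in that fit was not counted, so this is not read as a result. Within the dimmer arrays, where replicate 3 is the only MII oocyte array, the difference was 0.25, and within the brighter arrays -0.79. The suffix of this probe set marks probes that can also match other transcripts. The other 2 probe sets of Eif4ebp1, at 18.1 to 59.8 and above background nowhere, did not pass either (lowest limma adjusted p = 0.851 between SCC and cytoplast).

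Eif4ebp2 encodes 4E-BP2, of the same family. Its 5 probe sets read 13.1 to 66.5 and were above background on no array. None of the 4 that passed the filter was called between SCC and cytoplast (lowest limma adjusted p = 0.516) or between SCC and MII oocyte (lowest limma adjusted p = 0.375).

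Eif4enif1 encodes 4E-T, which carries eIF4E into the nucleus and into silenced mRNA particles. Probe set 1431075_a_at read 620, 763 and 693 on SCC arrays, 636, 577, 562 and 556 on cytoplast arrays and 675, 637 and 662 on MII oocyte arrays. SCC replicate 1 lay below cytoplast replicate 1, and the other SCC arrays lay above all cytoplast arrays. Its spread within groups was small, with a coefficient of variation of 10.3% over SCC arrays, 6.28% over cytoplast arrays and 2.96% over MII oocyte arrays. The SCC mean was 1.18 times the cytoplast mean (log2 difference 0.24, 95% interval 0.0037 to 0.49, SE 0.11, unadjusted p = 0.0471, limma adjusted p = 0.240), a difference that became -0.0067 after cyclic loess and -0.08 after quantile normalization. Against the MII oocyte the SCC was at 1.05 times (0.877 to 1.25; limma adjusted p = 0.878). The cytoplast arrays all lay below the MII oocyte arrays (log2 difference -0.18, SE 0.11, limma adjusted p = 0.926), by a margin of 636.2 against 636.9 at its narrowest.

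Taking all members, none of the 17 probe sets tested was called by limma between SCC and cytoplast, where 7.01% of all 23737 probe sets tested were called (6.74% higher, 0.274% lower). Unadjusted p was under 0.05 for 2 of the 17, against 20.2% of all tested. The share called was 20.0% among the 4734 probe sets that were above background on all arrays, whose median log2 difference was 0.28, while that of all tested was 0.01. The 17 members had a median of 0.008, but 11 of them were dim, so this median is not comparable with 0.28. The 6 above background in at least 1 group had log2 differences of -0.10 and 0.008 (Eif4e), 0.25 and 0.46 (Eif4e3), -0.52 (Eif4ebp1) and 0.24 (Eif4enif1). None of the 17 had arrays without overlap (13.9% of all tested were separate and higher, 5.89% separate and lower). Against the MII oocyte none was called in the SCC by limma (0.0421% of all tested were) and 2 had an unadjusted p under 0.05 (12.1% of all tested). The share called was 0.127% among probe sets above background on all arrays. No member was separate between SCC and MII oocyte arrays, where 8.71% of all tested were separate and higher and 5.34% separate and lower. Between cytoplast and MII oocyte no member and no other probe set was called by limma (0.00%), and no member had an unadjusted p under 0.05 (4.44% of all tested). In that comparison 2 members lay lower in the cytoplast with no overlap of arrays, Eif4enif1 and the dim Eif4ebp1 probe set 1417563_at, where 3.83% of all tested did, and none lay higher (1.89% of all tested). A p above the threshold does not show equal levels: between SCC and cytoplast the intervals of the 6 probe sets above background reached as low as 0.415-fold and as high as 1.83-fold. The MII oocyte holds both parts, and its mean log2 value lay between those of SCC and cytoplast for 3 of these 6 (both of Eif4e3 and Eif4enif1) and above both for the other 3. For Eif4e3 1417978_at this was nearly a tie, with a log2 difference, cytoplast minus MII oocyte, of -0.0014. No share of all tested is given beside this count.

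**Figure D3:**
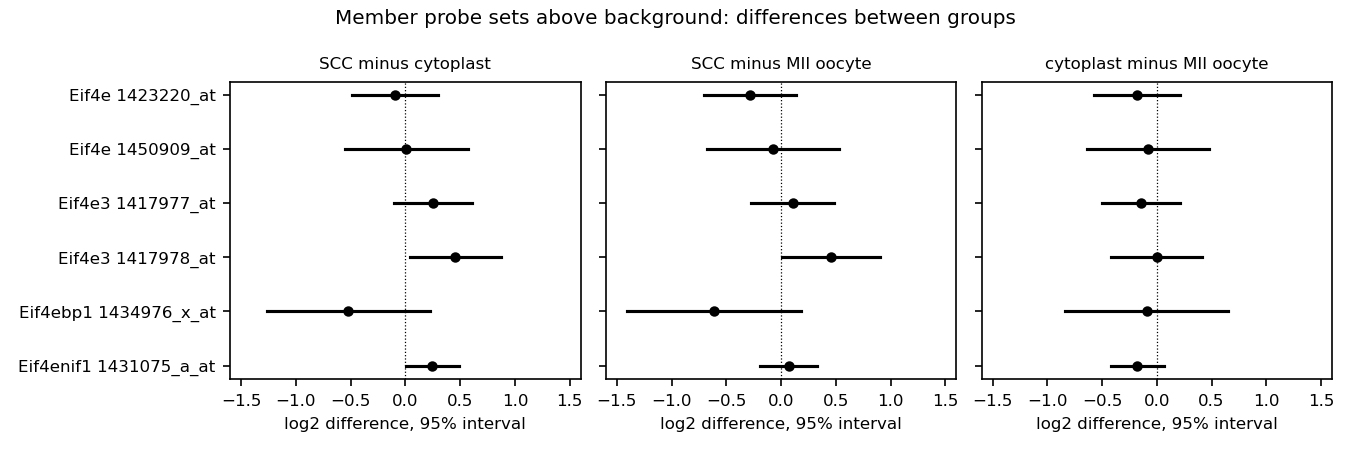
Log2 difference with its 95% interval from limma for the 6 member probe sets above background in at least 1 group, in SCC minus cytoplast, SCC minus MII oocyte and cytoplast minus MII oocyte. The interval of Eif4e3 1417978_at lies just above 0 in the first panel (log2 difference 0.46) and that of Eif4ebp1 1434976_x_at is the widest (log2 difference -0.52).

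A ratio of 2 members on the same array removes any factor common to that array. The ratio itself depends on the probes, so only its difference between groups is read. The 6 pairs among the 4 genes above background were compared in the 3 comparisons, 1 probe set a gene, a set of 18 tests chosen after the values were seen. The log2 ratio of Eif4e3 to Eif4e was 1.16, 1.36 and 1.10 on the SCC arrays, 0.76, 0.95, 0.88 and 0.83 on the cytoplast arrays and 0.79, 0.85 and 0.82 on the MII oocyte arrays. Every SCC array lay above all 7 others. SCC arrays averaged 1.20 ± 0.134 and cytoplast arrays 0.86 ± 0.079 (SD, n = 3 and 4), a difference of 0.35 (exact two-sided permutation p = 0.0286, the smallest this design can give; adjusted over the 18 tests, 0.257). Against the MII oocyte, at 0.82 ± 0.034, the difference was 0.39 (exact permutation p = 0.1, the smallest possible for 3 against 3 arrays; adjusted 0.360). It was 0.33 after cyclic loess and 0.41 after quantile normalization between SCC and cytoplast, and 0.27 to 0.40 with each array left out. With the second Eif4e3 probe set the groups were also separate (difference 0.56), but with Eif4e probe set 1450909_at in the denominator they overlapped (0.24 and 0.45).

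The ratios with Eif4ebp1 are among the 18 tests over which p was adjusted. Only their values are given, with no p, since its probe set was below background on SCC replicate 2 and MII oocyte replicate 3. The log2 ratio of Eif4ebp1 to Eif4e3 was -5.29, -5.54 and -5.10 on SCC arrays 1 to 3, -4.43, -4.46, -4.80 and -4.46 on the cytoplast arrays and -4.14, -5.30 and -4.33 on the MII oocyte arrays. Among the ratios without Eif4ebp1, the arrays of SCC and cytoplast overlapped for Eif4enif1 over Eif4e (difference 0.34, exact two-sided permutation p = 0.143; adjusted 0.429). No ratio passed after adjustment. However separate its arrays, 1 ratio alone could not pass, since the smallest exact permutation p here is 0.0286 and 18 tests were made. The adjusted values therefore do not show that ratios were equal.

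**Figure D4:**
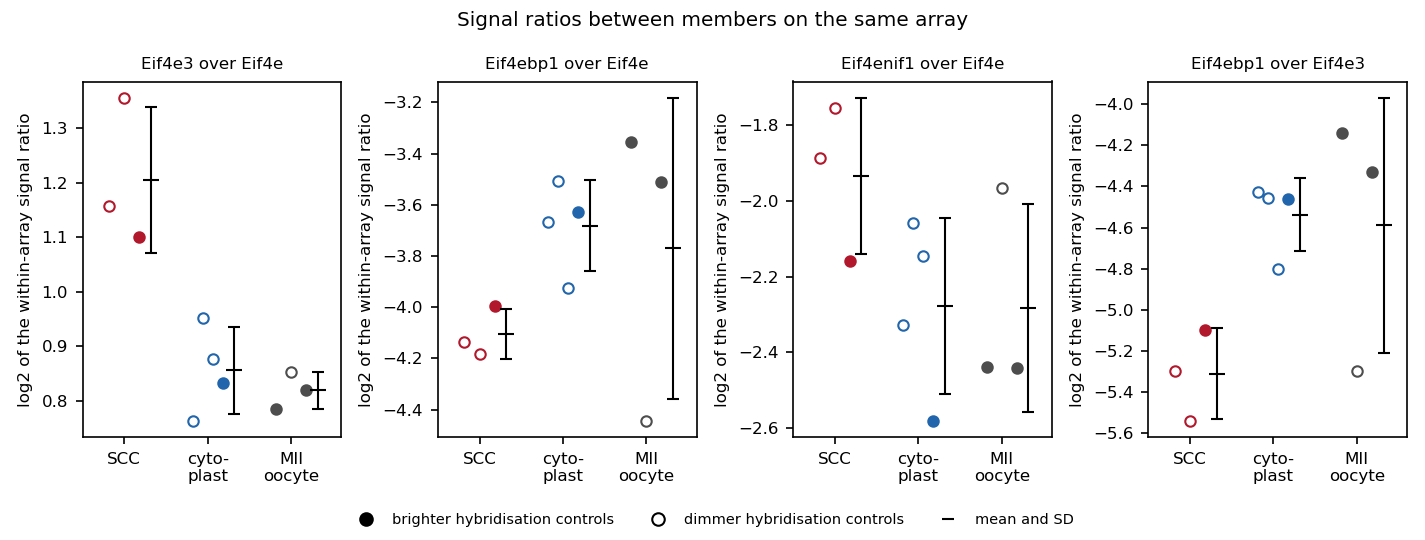
Log2 ratio of the signals of 2 members on the same array (vertical axes, which do not start at 0) for 4 of the 6 pairs, by group, with mean and SD; filled points mark arrays with brighter hybridisation controls. For Eif4e3 over Eif4e the 3 SCC arrays, at 1.10 to 1.36, lie above all others, and for Eif4ebp1 over Eif4e3 MII oocyte replicate 3, where Eif4ebp1 was below background, lies at -5.30.

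Genes whose products work with these proteins were set beside them. Of 23 genes of the cap-binding complex and its regulators, 21 were tested, 1 was higher in SCC than in cytoplast arrays and none lower, with a median log2 difference of 0.17, where 6.74% of all tested were called higher and 0.274% lower. Of the 21, 15 were above background on every array of at least 1 group. The share called, in either direction, was 20.0% among probe sets above background on all arrays. Rheb, the small GTPase that activates mTOR, was higher, at 5264, 6998 and 6316 in the SCC and 3693, 3554, 4604 and 3705 in the cytoplast (1.59-fold, 95% interval 1.25 to 2.03; limma adjusted p = 0.0306). It missed the threshold after cyclic loess (log2 0.35, limma adjusted p = 0.397) and quantile normalization (0.43, 0.287), and without SCC replicate 2 or 3 or cytoplast replicate 1, 2 or 4 (limma adjusted p up to 0.150). Eif4a2, a helicase of the complex, read 185, 179 and 214 in the SCC and 108, 110, 147 and 59.9 in the cytoplast. Its groups did not overlap, the lowest cytoplast array (replicate 4) was below that array's background of 117, and it missed the threshold (log2 difference 0.92, SE 0.27, limma adjusted p = 0.0696; without cytoplast replicate 4, 0.67 and 0.0886). Pabpc1l, the poly(A)-binding protein of oocytes, missed it too, with a log2 difference of 0.46 (limma adjusted p = 0.0613). It read 168, 173 and 191 in the SCC and 128, 111, 128 and 151 in the cytoplast. Cytoplast replicates 2 (110.98 against a background of 105.6) and 3 (128.32 against 128.26) were close to the background level. Eif4a2 and Pabpc1l each passed under some of the 20 alternatives and missed under others. Their limma adjusted p ran from 0.0157 to 0.253 for Eif4a2 and from 0.0308 to 0.291 for Pabpc1l. The helicase Eif4a1 (log2 0.25, limma adjusted p = 0.493) overlapped between the groups. The scaffold Eif4g3 was above background on no SCC array and 1 cytoplast array and did not pass (limma adjusted p = 0.627), and Eif4g1 had no probe set listed with it alone.

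A second list, named masking partners of the eIF4E-binding repressors, held 23 genes. It was broader than masking and decapping, with Ncbp1, Ncbp2, Zfp598 and Parn among them. Of the 23, 18 were tested, none was higher and 1 lower, with a median log2 difference of 0.15, against the same shares of all tested. Of the 18, 11 were above background on every array of at least 1 group, so the 20.0% among bright probe sets applies beside these too. The lower one was Ddx6, the helicase that binds 4E-T, at 39.2, 33.9 and 31.0 in the SCC and 59.6, 89.3, 63.6 and 50.6 in the cytoplast (limma adjusted p = 0.0337). It was above background on no array, so no difference in level is given, and its other tested probe sets, also above background on no array, did not pass (limma adjusted p = 0.484 and 0.857). It missed the threshold after cyclic loess (limma adjusted p = 0.0605), quantile normalization (0.0550) and with an offset of 16 (0.0590), and without SCC replicate 2 or 3 or cytoplast replicate 1, 2 or 3 (limma adjusted p up to 0.159). No gene of either list passed against the MII oocyte, and none between cytoplast and MII oocyte. Both medians lay below that of probe sets above background on all arrays (0.28) and above that of all tested (0.01).

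**Figure D5:**
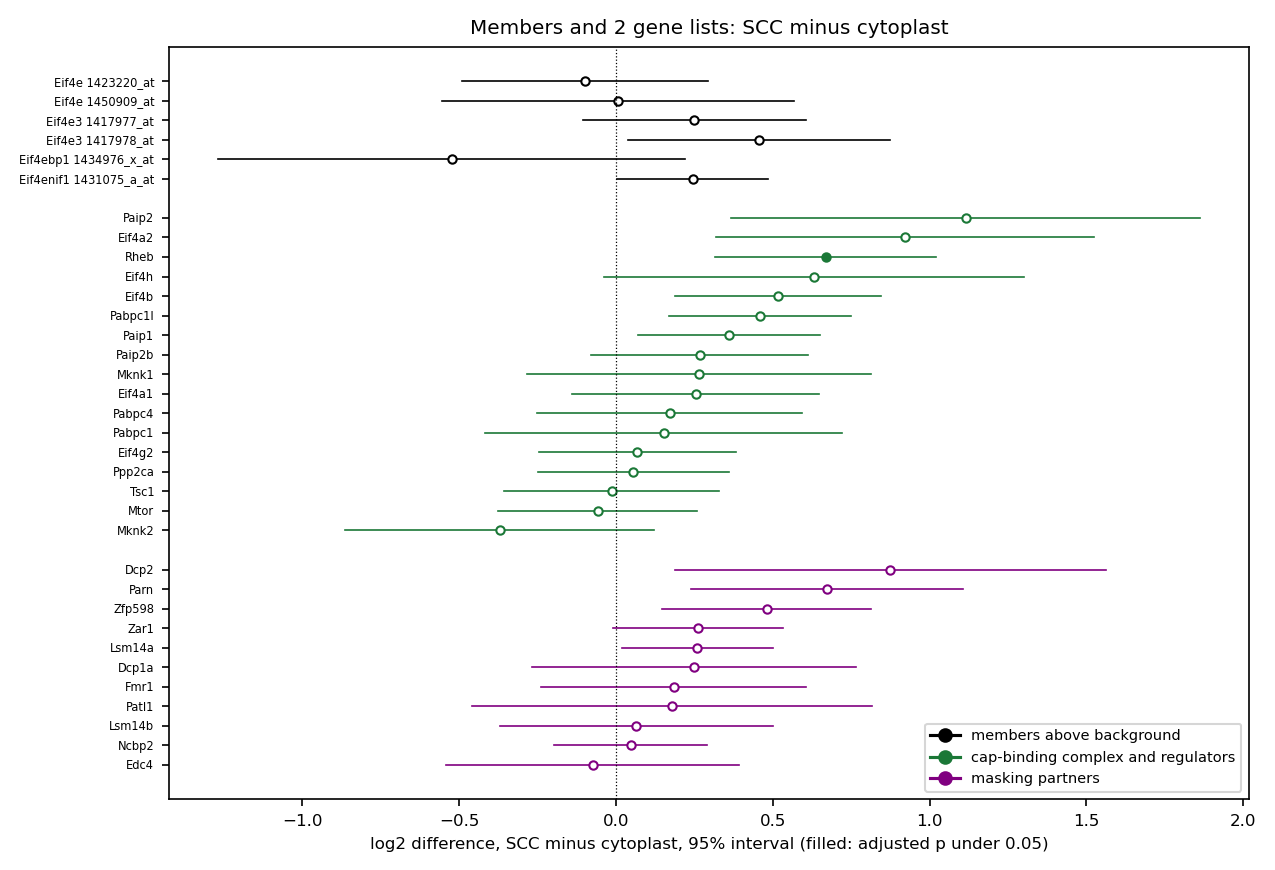
Log2 difference, SCC minus cytoplast, with its 95% interval, for the 6 member probe sets above background, and the tested genes above background on at least 1 SCC and 1 cytoplast array (17 of the cap-binding complex and its regulators and 11 masking partners), sorted within each list; filled points passed the limma test. Of those plotted only Rheb (0.67) is filled.

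Over the 10 arrays, the probe sets whose log2 values followed that of Eif4enif1 most closely, among 19323 of named genes, were those of Fam184a (Pearson r = 0.930), Rab9 (r = 0.927) and Fabp5 (r = 0.917). These are the highest of many correlations over arrays that share groups and brightness, and are given as a description. Eif4e1b could not be compared in this way.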

How the data were processed

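The deposited matrix holds linear intensity for each of 45101 probe sets, made by the authors; RMA is named in the submitters' processing notes, with settings not given in the sources used here. Per the labels' protocols, no more than 50 ng of RNA per sample was amplified in 2 rounds, and each array received 10 µg of cRNA. Log2 was taken here before any test, since the planned test expected a log scale. Apart from 64 controls, the annotation gave a single gene for 34945, several for 932 and none for 9160; 34741 of the first matched the RefSeq gene table (GRCm38.p6) by gene ID, used for names only. A probe set was tested if 3 or more arrays had it over their own median (23737, of which 17 of 20 members); a probe set can pass this through 1 group alone. limma 3.58.1 in R 4.3.3 fitted 1 mean per group over all 10 arrays, with Benjamini-Hochberg adjustment over all tested and a threshold of 0.05; the fit was tested on simulated data. The gene lists use the kept probe set with the highest mean. The members and lists were chosen with earlier results of these data known. Named were every member, list genes past the threshold in any comparison, 6 set genes (Eif4g1, Eif4g3, Eif4a1, Eif4a2, Pabpc1l, Ddx6), and the 3 named-gene probe sets most like Eif4enif1. The labels name biological replicates without animals or pools, so p-values cover only the spread among these arrays, which may be technical. Of the background genes, Ms4a1 and Vil1 were themselves above the level. The arrays were cut into brighter and dimmer ones at the largest gap in hybridisation control level, chosen after the values were seen; no label names a batch. Alternatives were other scalings, filters, an offset of 16, blocks, covariates and leaving out each array.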

Additional observations from a re-analysis of the deposited data

Results flagged for a closer look

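In 18 checks of the 4 cytoplast arrays (12 probe sets and 6 within-array ratios), 2 had 1 array far from the other 3, where chance gives about 1 in 20. For Rheb, cytoplast replicate 3 (4604 against 3554 to 3705 on the others) stood off by a gap of 0.840 of the group's range. For the log2 ratio of Eif4ebp1 to Eif4e3, cytoplast replicate 3 (-4.80 against -4.46 to -4.43) stood off by 0.920 of the range. Both were computed on log2 values, and no cause was tested.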

How the results depend on the processing

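No member was called between SCC and cytoplast when any 1 array was left out (0 to 0), nor with another scaling, filter, offset, the replicate block, 2-group fit or intensity trend; with the hybridisation control covariate and with the control level block, both chosen after seeing the data, 1 of 17 was, where 12.7% and 11.7% of all tested were called. Against the MII oocyte 1 was called in the SCC with the covariate, and 0 to 2 when an array was left out (2 without MII oocyte replicate 3, Eif4ebp1 and a probe set of Eif4e2 above background on no array). The share of all tested called between SCC and MII oocyte (0.0421% in the main fit) was not counted under these alternatives. These counts of members therefore have no rate to be read against. Between cytoplast and MII oocyte 0 members were called by limma under all 20 alternatives. The number of probe sets above background was 6 with the 90th percentile too. Of the genes that work with them, 2 passed between SCC and cytoplast, and 0 passed after cyclic loess, 0 after quantile normalization, 4 with the filter at the 75th percentile, 5 with only the 2 groups, 8 with the covariate, 6 with the control level block, and 0 to 6 when an array was left out. The share of all tested that was called moved too: 2.64%, 2.41%, 15.0%, 8.70%, 12.7% and 11.7% in that order, and 1.03% to 9.42% with an array left out, against 7.01%. Of all calls in that comparison 96.1% were higher in the SCC, 80.7% after cyclic loess (505 and 121) and 73.1% after quantile normalization (418 and 154). The causes were not tested.

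Directions turned for small differences. After cyclic loess, SCC minus cytoplast was -0.19 for Eif4e 1450909_at, -0.077 for Eif4e3 1417977_at, -0.0067 for Eif4enif1 and -0.050 for Eif4a1; SCC minus MII oocyte was -0.029 for Eif4e3 1417977_at and -0.031 for Eif4enif1. After quantile normalization, SCC minus cytoplast was -0.24 for Eif4e 1450909_at, -0.082 for Eif4enif1 and -0.026 for Eif4a1, SCC minus MII oocyte was -0.0090 for Eif4e3 1417977_at and -0.070 for Eif4enif1, and cytoplast minus MII oocyte was 0.012 for Eif4enif1. With the covariate Eif4e 1450909_at was -0.012. Leaving out each array gave, for SCC minus cytoplast, -0.22 to 0.00084 for Eif4e 1423220_at and -0.17 to 0.15 for 1450909_at, and for SCC minus MII oocyte -0.26 to 0.19 for 1450909_at, -0.060 to 0.23 for Eif4e3 1417977_at and -0.0048 to 0.14 for Eif4enif1.

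Equal replicate numbers were not shown to pair the samples: residuals of 8 same-numbered pairs had correlations of -0.304 to 0.614. With the replicate number as a block, 4 partner genes (and 8.19% of all tested) passed between SCC and cytoplast, and Eif4e 1450909_at was -0.14. Groups of 3 and 4 arrays and 14 member probe sets not above background limit what can be detected.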
